A study of Mus musculus with 4 samples.

Results

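Calb2-positive Martinotti-like cells are a small set of somatostatin (SST) interneurons of the mouse somatosensory cortex (S1), picked out here by their own transcript counts. A sequenced cell barcode was taken as a Calb2+ SST cell when it had at least 2000 unique molecular identifiers (UMIs, each of which marks 1 captured transcript), under 25% of them from mitochondrial genes, at least 3 UMIs of Sst, at least 2 of Calb2, fewer than 3 of Nos1 and Chodl together and fewer than 3 of Pvalb. This rule found 152 cells. They were set against the remaining 1899 of the 2051 barcodes that passed the depth, mitochondrial and Sst limits, called other SST cells below. Because Sst, Calb2, Nos1, Chodl and Pvalb chose the cells, their levels are given as a description and were not tested.

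All libraries came from mice on an outbred CD1 background that carried Sst-IRES-Cre, the Cre-dependent tdTomato reporter of the Ai9 line and the X94 transgene, in which a Gad1 promoter drives EGFP. Cre under the Sst locus turns the reporter on permanently, so tdTomato marks every cell that has ever expressed Cre, and X94 is a line whose GFP pattern depends on where the transgene landed. Cells were sorted for GFP and tdTomato from mice aged 97 days (P97; 1 library, 6 mice pooled), for tdTomato from the same P97 mice (1 library), and for tdTomato from mice aged 45 days (P45; 2 libraries from separate batches, with the number of mice not stated). The Calb2+ cells numbered 6 of 186 SST cells in the GFP+ P97 library, 25 of 553 in the tdTomato+ P97 library, 70 of 667 in P45 replicate 1 and 51 of 645 in P45 replicate 2. Tests used the 3 tdTomato+ libraries, with 146 Calb2+ cells and 1719 other SST cells.

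SST interneurons release GABA mainly onto the dendrites of their targets. Martinotti cells are the SST cells whose axon climbs to layer 1, where it meets the apical tufts of pyramidal neurons, and calretinin, the calcium-binding protein encoded by Calb2, is known as a marker of some of them. Non-Martinotti SST cells, which X94 labels in part, send their axon to layer 4 instead. Morphology was not measured in these libraries, so the word Martinotti-like rests on transcripts alone.

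The cells lay close to the limit that defines them. Over the tdTomato+ libraries, 48 of the 146 had exactly 2 Calb2 UMIs, 38 had 3 and 60 had 4 or more, and 88 cells that met every other limit had exactly 1 Calb2 UMI and so fell outside. The median Calb2+ cell held 3 Calb2 UMIs in each tdTomato+ library, with a maximum of 8 in the P97 library and of 17 in both P45 libraries. In all 4 libraries 174 SST cells had at least 2 Calb2 UMIs. The limit on Nos1 and Chodl left out 19 of these (2 with exactly 3 UMIs of the pair, 17 with more), and the limit on Pvalb left out 4 (1 with 3 UMIs, 3 with more). As 1 cell of the P97 library failed both, 22 were left out in all. None of the 152 Calb2+ cells had a Chodl UMI, while 53 had Nos1 UMIs and 42 had Pvalb UMIs, all below the limits. The lowest Sst count in a Calb2+ cell was 9, so the Sst limit of 3 decided on none of them.

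The libraries totalled between 3410049 and 5693022 UMIs. In the tdTomato+ libraries Calb2+ cells were deeper than the other SST cells, with medians of 8788, 6245 and 8420 UMIs for P97, P45 replicate 1 and P45 replicate 2, against 7637, 4976 and 6007. A limit of 2 UMIs is easier to reach in a deep cell, so shares were also taken after every cell was thinned to 3000 UMIs. Calls of doublets (22 of the 2051 SST cells) held none of the Calb2+ cells, and no barcode of a Calb2+ cell was shared between libraries. At least 2 UMIs of Slc17a7, or of 6 glial and vascular markers together (Mbp, Aqp4, Cx3cr1, C1qa and Cldn5 among them), were held by 4 of the Calb2+ cells and 84 of the other SST cells.

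Calb2+ cells made up 4.52% of SST cells in the tdTomato+ P97 library (95% exact Clopper-Pearson interval 2.95 to 6.60), 10.5% in P45 replicate 1 (8.27 to 13.1) and 7.91% in P45 replicate 2 (5.94 to 10.3), with a mean of 7.64 ± 3.0% (SD, n = 3). In the GFP+ P97 library the share was 3.23% (1.19 to 6.89). After thinning, with the rule applied anew, it was 1.88% at P97 (9 of 479 cells), and 7.50% (42 of 560) and 4.71% (26 of 552) in the P45 libraries, with a mean of 4.70%. In the GFP+ library it was 0 of 176 cells after thinning, with an interval up to 2.07%. The P97 share was the lowest of the tdTomato+ libraries before and after thinning, but P97 is 1 library, so its age and its batch cannot be told apart. These intervals, like all others given here, cover counting error only.

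By construction Calb2 was high in the chosen cells, at 388, 538 and 543 CPM (UMIs scaled to a common total of UMIs per group) in Calb2+ cells of the P97 library, P45 replicate 1 and P45 replicate 2, against 10.2, 31.5 and 14.2 CPM in other SST cells. Sst itself reached 7245, 10434 and 9452 CPM in Calb2+ cells and 4657, 8204 and 4931 CPM in other SST cells. In the Calb2+ cells Chodl was at 0 in every library and Pvalb lay between 37.97 and 47.3 CPM. The gene for Calb2 lies at chr8:110137502-110168210 on the minus strand of GRCm38. CPM here are sums over all cells of a group in a library, so each library gives 1 value per group.

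The 3 other markers that go with this label, Olfm3, Cbln4 and Sfrp2, played no part in the rule, and all were higher in Calb2+ cells. Olfm3, which encodes a secreted olfactomedin-domain protein (chr3:114904078-115125722), measured 249, 473 and 456 CPM in Calb2+ cells of the P97 library, P45 replicate 1 and P45 replicate 2, against 89.6, 173 and 102 CPM in other SST cells. Cbln4 (chr2:172036233-172043466) encodes cerebellin 4, a secreted synapse organizer that binds presynaptic receptors. It stood at 207, 404 and 298 CPM in Calb2+ cells, against 57.7, 115 and 61.4 CPM in other SST cells. Sfrp2 (chr3:83766321-83774316), a secreted frizzled-related protein that binds Wnt ligands, stood at 80.2, 159 and 131 CPM in Calb2+ cells and 23.1, 35.2 and 50.5 CPM in other SST cells. For all 3 genes the groups did not overlap over the libraries, and both groups had their lowest value of Olfm3, Cbln4 and Sfrp2 at P97. The log2 fold changes were 1.75 (SE 0.14), 2.02 (SE 0.13) and 1.81 (SE 0.18), with adjusted p of 1.85e-08, 1.68e-09 and 6.93e-07 in edgeR's quasi-likelihood test with Benjamini-Hochberg adjustment. These markers were attached to the label with earlier results of these libraries known and are not independent evidence for it.

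**Figure D1:**
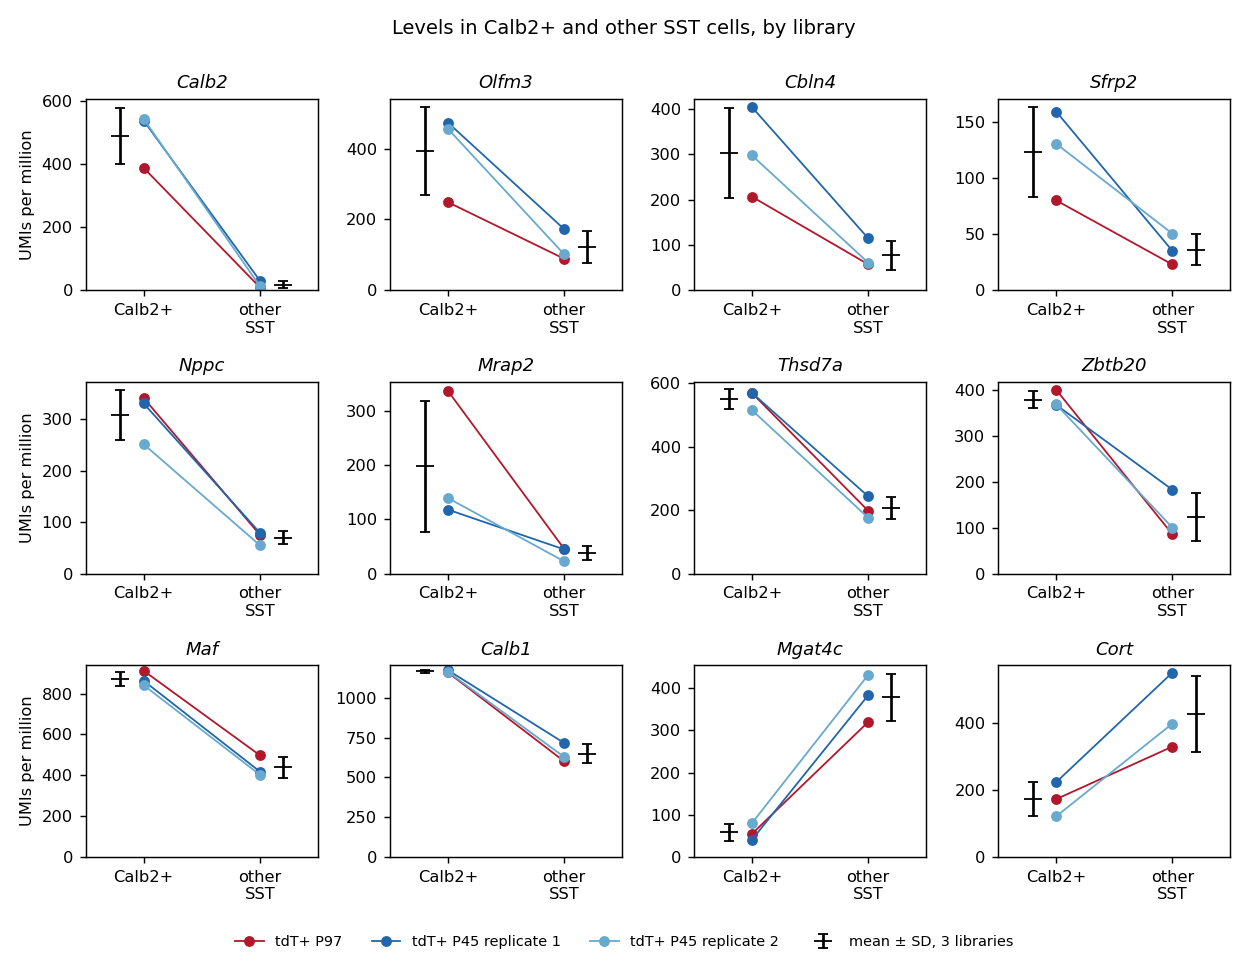
CPM (vertical axis, from 0) of 12 genes in Calb2+ cells (left) and other SST cells (right), summed over the cells of each tdTomato+ library. Lines join the groups of 1 library and black bars are mean ± SD over 3 libraries; Calb2 chose the cells, and in every panel all 3 libraries move the same way, upwards towards the Calb2+ cells except for Mgat4c and Cort.

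Single cells showed the same markers only in part. After thinning to 3000 UMIs, Olfm3 was detected in 60.1% of 143 Calb2+ cells (51.6 to 68.2), against 18.7% of 1532 other SST cells (16.7 to 20.7). It was detected in 7.62% of 105 barcodes with at least 2 UMIs of Slc17a7 and fewer than 3 of Sst. These are called Slc17a7 barcodes below and are given for comparison, since some may hold a little Sst. Cbln4 was detected in 77 of 143 Calb2+ cells, 215 of 1532 other SST cells and 8 of 105 Slc17a7 barcodes. The shares for Sfrp2 were 33.6%, 8.22% and 0.952%. The median depth of these cells before thinning was 7415, 6504.5 and 7266 UMIs, and 3, 187 and 6 shallower cells were left out. Without thinning the Calb2+ and other SST shares were 79.5% and 25.4% for Olfm3, 78.1% and 23.3% for Cbln4, and 52.1% and 12.6% for Sfrp2. All 3 markers together were found in 20 of the 143 thinned Calb2+ cells and in 24 of the 1532 other SST cells. By library, all 3 were found in 0 of 25 Calb2+ cells at P97, 8 of 67 in P45 replicate 1 and 12 of 51 in P45 replicate 2, and none of the 3 in 10, 9 and 8 cells. None of the 3 was found in 27 of the 143 Calb2+ cells, against 1093 of the 1532 other SST cells.

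Mean levels of Olfm3 and Cbln4 were alike at 1 and at 2 Calb2 UMIs, while Sfrp2 was higher at 2 in each tdTomato+ library. Among cells that met the other limits, those with no Calb2 UMI averaged 106 ± 38.7 CPM of Olfm3 and 61.8 ± 29.7 CPM of Cbln4 (SD, n = 3 libraries). Cells with exactly 1 averaged 369.9 ± 203 and 245 ± 132 CPM, cells with exactly 2 averaged 368 ± 119 and 235 ± 143 CPM, and cells with 4 or more 421 ± 92.4 and 312 ± 55.4 CPM. Sfrp2 averaged 36.5 ± 12.5 CPM at 0 Calb2 UMIs, 77.7 ± 57.8 CPM at 1, 150.1 ± 27.0 CPM at 2 and 118 ± 47.9 CPM at 4 or more. By library, Sfrp2 at 2 against 1 Calb2 UMIs stood at 119 against 17.3 CPM at P97, 166 against 83.4 CPM in P45 replicate 1 and 166 against 132 CPM in P45 replicate 2. These are values on either side of the threshold and were not tested. The other SST cells thus include cells with 1 Calb2 UMI whose mean levels of Olfm3 and Cbln4 lie within 1 SD of those at 2 UMIs.

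**Figure D2:**
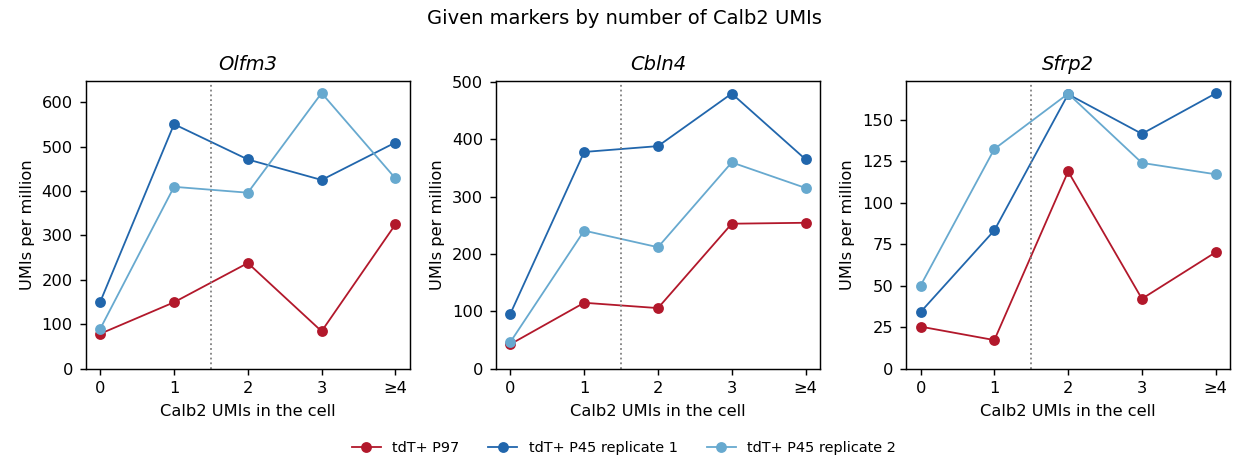
CPM of Olfm3, Cbln4 and Sfrp2 (vertical axes, from 0) by the number of Calb2 UMIs in the cell (horizontal axis), summed over cells within the other limits in each tdTomato+ library. The dotted line is the limit of 2 Calb2 UMIs; in both P45 libraries Olfm3 and Cbln4 are already high at 1 Calb2 UMI, and the P97 library lies lowest for Cbln4 at every count.

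Across all genes, 463 of 10456 tested differed between Calb2+ cells and other SST cells at an adjusted p under 0.05, which is 4.43% of the genes. Of these 215 (2.06%) were higher and 248 (2.37%) lower in Calb2+ cells, and 459 of the 463 moved the same way in all 3 libraries. At an unadjusted p under 0.05 there were 1642 genes. Groups did not overlap over the 3 libraries for 422 of the 463, against 20.5% of all genes tested. The fit had 6 sums, 3 libraries as blocks and 2 residual degrees of freedom, and edgeR lent each gene the spread of the others. Without P45 replicate 2 the count was 303, and without the library block 176.

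Nppc, the precursor of C-type natriuretic peptide, measured 342, 331 and 252 CPM in Calb2+ cells of the P97 library, P45 replicate 1 and P45 replicate 2, against 75.8, 79.9 and 55.4 CPM in other SST cells. Its log2 fold change was 2.17 (SE 0.12, adjusted p = 1.78e-10). Mrap2, an accessory protein of melanocortin receptors, measured 338, 118 and 140 CPM in Calb2+ cells and 46.2, 44.9 and 23.0 CPM in other SST cells, a log2 fold change of 2.34 (SE 0.21, adjusted p = 2.24e-07). The groups overlapped for neither, and Mrap2 stood highest in the P97 Calb2+ cells. At least 2 UMIs of Nppc and Mrap2 together were held by 104 of the 146 Calb2+ cells, against 294 of the 1719 other SST cells without thinning. After thinning Nppc was detected in 46.2% of Calb2+ cells, 16.6% of other SST cells and 3.81% of Slc17a7 barcodes.

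Atp2b4, a plasma membrane calcium pump, averaged 124 ± 8.65 CPM in Calb2+ cells and 31.8 ± 16.5 CPM in other SST cells (SD, n = 3 each), a log2 fold change of 1.97 (SE 0.23, adjusted p = 6.96e-06 in edgeR). Pde1a, a phosphodiesterase switched on by calcium and calmodulin, averaged 534 ± 170 CPM against 185 ± 59.2 CPM, a log2 fold change of 1.55 (SE 0.17). Iqcj, a small protein with an IQ motif of the kind that binds calmodulin, averaged 51.9 ± 10.6 CPM in Calb2+ cells and 8.98 ± 5.99 CPM in other SST cells. Thsd7a, a membrane protein with thrombospondin repeats, averaged 552 ± 31.4 CPM against 206 ± 34.4 CPM with a log2 fold change of 1.46 (SE 0.10). Net1, a guanine nucleotide exchange factor, Tbc1d4, which acts on Rab proteins, Cdh8, a cadherin, and 1700001L19Rik complete the largest rises above 50 CPM, at log2 fold changes of 1.59, 1.47, 1.41 and 1.48.

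Of the 23 genes listed by the study as top classifiers of its cluster m1, a list made after its clustering, 22 were higher in Calb2+ cells and 1, Mgat4c, was lower, a median log2 fold change of 1.21 against 0.00 over all genes tested. That list was chosen by the study on these same libraries, so it is not independent evidence of direction. Besides those above it holds Chl1, a neural adhesion molecule, at 720.4 ± 78.3 CPM in Calb2+ cells and 361 ± 39.7 CPM in other SST cells, and Cpne5, a calcium-dependent membrane-binding protein, at 226 ± 10.7 and 105 ± 18.3 CPM. Mgat4c, a glycosyltransferase, measured 54.9, 40.9 and 80.2 CPM in Calb2+ cells and 319.9, 383 and 432 CPM in other SST cells, a log2 fold change of -2.68 (SE 0.16, adjusted p = 7.37e-10). The same 22 and 1 were counted when cells were thinned to 5000 UMIs and when cells with markers of other types were left out.

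The transcription factors shared a pattern of both signs, with 8 of 32 tested higher and 7 lower. Maf, which is needed for SST interneurons to form in number in mice, measured 911, 863 and 841 CPM in Calb2+ cells and 498, 418 and 403 CPM in other SST cells, a log2 fold change of 1.04 (SE 0.09, adjusted p = 1.29e-07 in edgeR). Zbtb20, a zinc finger repressor, stood at 401, 368 and 369 CPM in Calb2+ cells against 86.0, 183 and 101 CPM, and Mef2c, an activity-regulated factor, at 1595, 1388 and 1070.0 CPM against 910.1, 757 and 824 CPM. Tox, Id4, Tox3 and Bcl11a were higher as well, by 0.39 to 1.07 on the log2 scale. On the other side Satb1, a chromatin organizer that SST interneurons need in order to mature, stood at 380 to 432 CPM in Calb2+ cells against 658 to 808 CPM, a log2 fold change of -0.82 (SE 0.11). Nr2f2 (COUP-TFII) fell the most, to 8.44, 8.61 and 22.9 CPM in Calb2+ cells, against 90.9, 57.4 and 63.4 CPM in other SST cells, and Rora, Npas3, Pou3f3, Prdm1 and Npas1 were also lower. The regulators common to SST interneurons, Lhx6 and Sox6, averaged 155 ± 20.7 and 162 ± 24.9 CPM in Calb2+ cells and 172 ± 30.6 and 184 ± 15.3 CPM in other SST cells, with adjusted p of 0.743 and 0.646.

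Neuropeptide genes were mostly lower in Calb2+ cells. Of 13 tested, Nppc and Crhbp, a binding protein for corticotropin-releasing hormone, were higher and 7 were lower, with a median log2 fold change of -1.14. Cort, which encodes cortistatin, a relative of somatostatin, measured 173, 224 and 121 CPM in Calb2+ cells and 330.3, 552 and 399 CPM in other SST cells, a log2 fold change of -1.31 (SE 0.13, adjusted p = 9.53e-07 in edgeR). Cartpt and Tac2 had no UMI in Calb2+ cells, and with a floor of 3 counts over all Calb2+ cells together they were at least 7.32-fold and 6.12-fold lower. Penk, Cck and Tac1 held 2, 3 and 2 UMIs in all 146 Calb2+ cells, against means of 33.8, 33.7 and 25.6 CPM in other SST cells, and Crh averaged 17.3 ± 18.9 CPM against 42.9 ± 9.70 CPM. Npy did not pass the test, with means of 3963 ± 66.6 CPM in Calb2+ cells and 5861 ± 3817 CPM in other SST cells, of which P45 replicate 1 alone reached 10216 CPM. Of 22 markers of other SST types tested, 11 were lower, among them Myh13, Nr2f2, Tacr1 and Sema3c. The 4 higher were Mme, Pdlim5, Lgals1 and Eya1. Crh, Tac2, Tac1 and Cartpt were lower and stand in both lists, so the counts of the lists are not independent. Shares called were 69.2% of neuropeptides and 68.2% of markers of other SST types, beside 4.43% of all genes. With cells thinned to 5000 UMIs, 1 neuropeptide gene was higher and 5 lower. Of the markers of other SST types 2 were then higher and 5 lower. Vip, Th, Nts and Cartpt reached 2 UMIs in none of the 146 Calb2+ cells, which allows a share of up to 2.05%. Of other SST cells 0.291% reached it for Vip, 1.80% for Th or Nts and 2.56% for Cartpt, so for Vip and for Th or Nts no difference was detectable at this depth. Chrna2, a nicotinic subunit known from some layer 5 Martinotti cells, also reached 2 UMIs in none and held 3 UMIs in all. Of other SST cells 1.05% reached 2 Chrna2 UMIs, under the 2.05% that a count of 0 allows, so no difference was detectable for it either.

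Calb2 was not the sole EF-hand calcium-binding gene at a higher level in Calb2+ cells than in other SST cells. Calb1 (calbindin) measured 1160.3, 1175 and 1164 CPM in Calb2+ cells of the P97 library, P45 replicate 1 and P45 replicate 2, against 602, 717 and 629 CPM in other SST cells, a log2 fold change of 0.89 (SE 0.09, adjusted p = 9.16e-07). After thinning it was detected in 88.8% of Calb2+ cells (82.5 to 93.5), 59.4% of other SST cells (56.9 to 61.9) and 23.8% of Slc17a7 barcodes. Rcn1, a protein of the endoplasmic reticulum, also rose, and 6 of 24 tested fell. The share called was 33.3%, beside 4.43% of all genes. With cells thinned to 5000 UMIs, 1 EF-hand gene was higher and 3 were lower. Ncald, a neuronal calcium sensor, averaged 86.3 ± 17.6 CPM in Calb2+ cells against 239 ± 69.0 CPM, and Kcnip4, a partner of Kv4 channels, 4.29 ± 3.59 CPM against 41.0 ± 20.1 CPM.

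**Figure D3:**
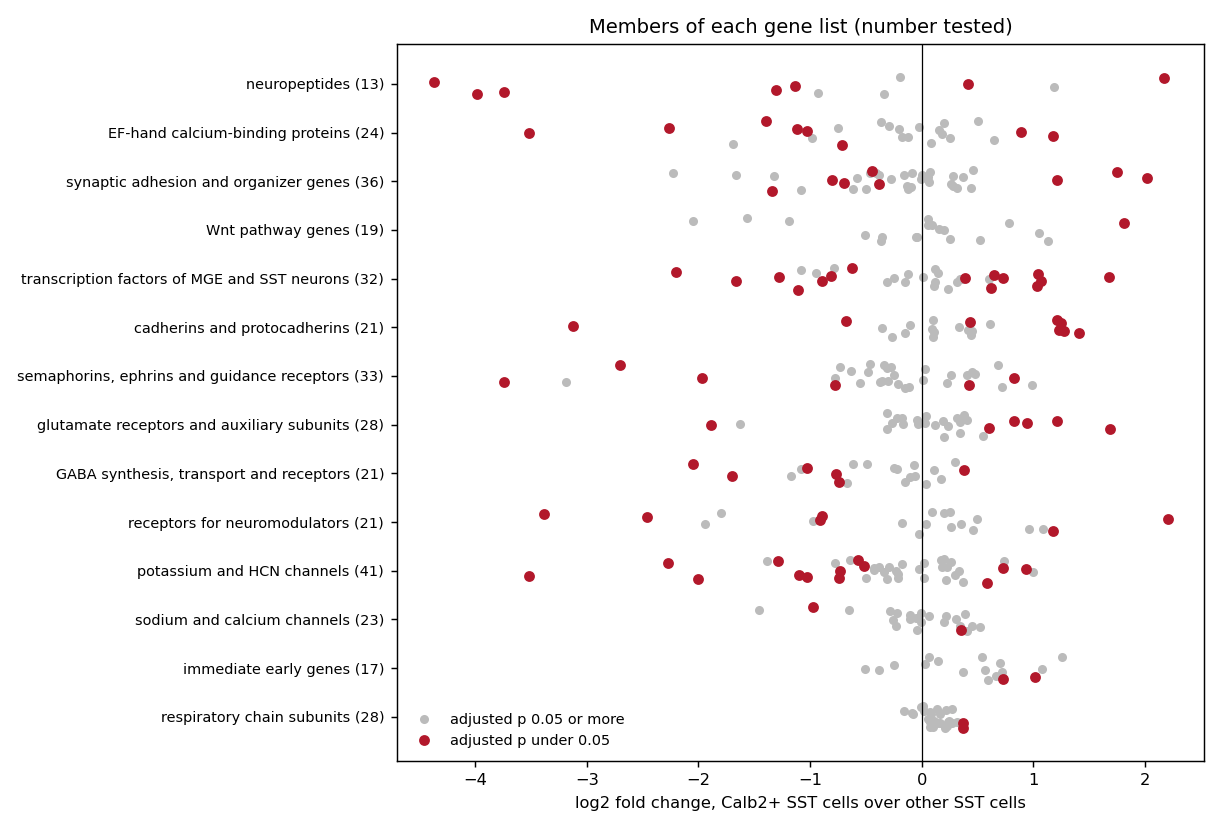
Log2 fold change of Calb2+ over other SST cells (horizontal axis) for each tested member of 14 gene lists, with vertical jitter for display and the number tested in brackets. Red points have an adjusted p under 0.05. Cartpt and Tac2, with no UMI in Calb2+ cells, are left out of the neuropeptide row. The transcription factors hold the most calls, 8 higher and 7 lower (46.9% of those tested, beside 4.43% of all genes).

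Of 36 synaptic adhesion and organizer genes tested, Cbln4, Olfm3 and Ptprd were higher and Olfm1, Lrrtm1, Clstn2, Clstn3 and Ptprs were lower. Ptprd, a receptor phosphatase that acts as a presynaptic adhesion hub, measured 228, 305 and 268 CPM in Calb2+ cells and 118, 143 and 99.8 CPM in other SST cells, a log2 fold change of 1.21 (SE 0.13, adjusted p = 1.79e-06 in edgeR). Its relative Ptprs averaged 281 ± 17.0 CPM in Calb2+ cells and 378 ± 34.8 CPM in other SST cells, a log2 fold change of -0.39 (SE 0.11). Of 21 cadherins and protocadherins tested, 6 were higher (Pcdh18, Pcdh19, Cdh4, Pcdh8, Cdh8 and Pcdh9) and 2 lower (Cdh12 and Cdh2). Pcdh19 stood at 127, 125 and 105 CPM in Calb2+ cells against 40.2, 61.4 and 46.4 CPM, while Cdh12 stood at 8.44, 2.15 and 4.58 CPM against 40.0, 43.2 and 36.4 CPM. Of 33 guidance genes Plxnc1 and Epha5 were higher and Sema3e, Slit2, Sema3c and Plxna4 lower, while after thinning to 5000 UMIs 0 were higher and 2 lower. Shares called were 22.2% of the adhesion list, 38.1% of cadherins and protocadherins and 18.2% of guidance genes, beside 4.43% of all genes. Of 19 Wnt pathway genes tested 1, Sfrp2, was called (5.26%, beside 4.43% of all genes). Without the cells that held markers of other types 2 Wnt pathway genes were higher and 2 lower. With the other SST cells limited to those with no Calb2 UMI and within the limits on Nos1, Chodl and Pvalb, 2 were higher and 1 lower.

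Of 28 glutamate receptor genes and auxiliary subunits, 5 were higher (Gria1, Cacng3, Grm4, Cacng4 and Cacng5) and 1, Cnih3, was lower. Gria1, an AMPA receptor subunit, measured 873, 886 and 898 CPM in Calb2+ cells and 563, 668 and 567 CPM in other SST cells, a log2 fold change of 0.61 (SE 0.09, adjusted p = 0.00017 in edgeR), and the AMPA receptor regulator Cacng3 averaged 200 ± 9.50 CPM against 115 ± 10.2 CPM. Of 21 genes of GABA synthesis, transport and reception, Gad2 was higher, a call lost under 5 alternatives, and 5 were lower. Shares called were 21.4% of the glutamate list and 28.6% of the GABA list, beside 4.43% of all genes. Gabrd, a GABA-A receptor subunit, averaged 14.2 ± 13.4 CPM in Calb2+ cells and 42.0 ± 16.2 CPM in other SST cells, a log2 fold change of -1.70 (SE 0.35, adjusted p = 0.00396), and the groups overlapped. Gabra4, Gabrg3 and the chloride transporter Slc12a2 were also lower. With cells thinned to 5000 UMIs, calls in the glutamate list were 2 higher and 0 lower, and in the GABA list 0 higher and 2 lower. Gad1 and Slc32a1, the GABA synthesis enzyme and vesicle transporter that all these cells should share, averaged 1056 ± 101 and 507 ± 96.4 CPM in Calb2+ cells and 1130 ± 94.6 and 481 ± 43.1 CPM in other SST cells, with adjusted p of 0.816 and 0.691.

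Receptors for neuromodulators held the oxytocin receptor among the rises. Oxtr measured 122, 159 and 128 CPM in Calb2+ cells and 59.4, 71.3 and 57.0 CPM in other SST cells, a log2 fold change of 1.175 (SE 0.15, adjusted p = 1.62e-05 in edgeR), and kept its call under every alternative run. Adra2a, an adrenergic receptor, rose at a low level, with 15 UMIs in all Calb2+ cells. Cnr1 (cannabinoid receptor), Chrm2 (muscarinic receptor), Tacr1 (substance P receptor) and Chrna4 (nicotinic subunit) were lower, so that 2 of 21 tested rose and 4 fell. The share called was 28.6%, beside 4.43% of all genes. Chrm2 held 3 UMIs in all Calb2+ cells, and Cnr1 averaged 118 ± 29.0 CPM in Calb2+ cells against 224 ± 58.1 CPM.

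Of 41 potassium and HCN channel genes tested, 10 were lower and 3 higher in Calb2+ cells. The inward rectifier Kcnj3 measured 12.7, 17.2 and 18.3 CPM in Calb2+ cells and 84.9, 71.6 and 94.6 CPM in other SST cells, a log2 fold change of -2.27 (SE 0.25, adjusted p = 4.14e-06 in edgeR). Kcnc2 and Kcnc4, Kv3 genes whose channels serve fast spiking, were lower, with log2 fold changes of -0.57 and -2.0. Other SST cells included cells with Pvalb, at 148 to 309.6 CPM by library against 37.97 to 47.3 CPM in Calb2+ cells by the rule. With the other SST cells limited to those with no Calb2 UMI and within the limits on Nos1, Chodl and Pvalb, Kcnc4 stood at -2.33. The list then stood at 3 higher and 12 lower. Such cells could still hold Pvalb, at fewer than 3 UMIs each. Kcnk2, a background potassium channel, was higher, at 316 ± 27.5 CPM in Calb2+ cells against 169.9 ± 29.9 CPM, as were Kcnd2 and Dpp10, which form Kv4 channels together. Of 23 sodium and calcium channel genes Cacnb4 was higher and Cacna2d2 lower. Shares called were 31.7% of the potassium and HCN list and 8.70% of the sodium and calcium list, beside 4.43% of all genes. When cells were thinned to 5000 UMIs, 2 potassium channel genes were higher and 6 lower, and of sodium and calcium channel genes 0 were higher and 1 lower.

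Of immediate early genes 2 of 17 (11.8%) were called and of respiratory chain genes 2 of 28 (7.14%), beside 4.43% of all genes. Egr1 and Junb were the calls among 17 immediate early genes, at log2 fold changes of 0.73 (SE 0.13, adjusted p = 0.00115 in edgeR) and 1.02 (SE 0.24, adjusted p = 0.0119). The list's median was 0.57 and the groups overlapped for both genes. Egr1 lost its call without the library block (adjusted p = 0.205). Ndufa2 and Cox5a were the calls among 28 respiratory chain genes, both at 0.37. Without the cells that held markers of other types, the calls were 5 immediate early and 2 respiratory chain genes, and after thinning 3 and 0. With the other SST cells limited to those with no Calb2 UMI and within the limits on Nos1, Chodl and Pvalb, they were 4 and 9, all higher. Libraries were made from dissociated cells, and no sample without dissociation was analysed here.

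Some of the largest falls were genes of oligodendrocytes, which SST cells should lack. Mbp (myelin basic protein) averaged 34.0 ± 8.91 CPM in Calb2+ cells and 118 ± 15.8 CPM in other SST cells, and Mog had no UMI in Calb2+ cells, at least 15.1-fold lower with a floor of 3 counts over all of them. Mobp, Mal and Cldn11, all made by myelinating cells, had 1 UMI each. The summed level of 20 glial and vascular markers was 43.5 to 53.8 CPM in Calb2+ cells and 999 to 1088 CPM in other SST cells, and 14 of the 20 had no UMI in Calb2+ cells, Aqp4, Gja1, Cx3cr1 and Cldn5 among them. The low sum was not particular to Calb2+ cells. In 2 narrower groups of SST cells defined below, it was 37.6 to 42.5 CPM (Nppc or Mrap2 cells) and 27.2 to 67.6 CPM (Hpse Pdyn cells). Without the cells that held markers of other types, Mbp turned to a log2 fold change of 0.58 (adjusted p = 0.321). Mbp was itself among the markers for which those cells were left out, so it chose some of them, and Mobp, Mal and Cldn11 gave no value there. With a limit of 1 Calb2 UMI, Mbp stood at -0.30 (adjusted p = 0.848). Without the cells holding other markers the count of genes called was 546, of which 422 were among the 463. The 12 excitatory neuron markers summed to 275 to 350.2 CPM in Calb2+ cells and 299 to 323 CPM in other SST cells, with 7 of the 12, Slc17a7 among them, at 0 in Calb2+ cells. Of 12 VIP and CGE interneuron markers 7 were at 0 in Calb2+ cells, Vip among them, and the list summed to 224 to 293 CPM, against 431 to 557 CPM in other SST cells. It summed to 391 to 420 CPM in Nppc or Mrap2 cells and 271 to 339 CPM in Hpse Pdyn cells.

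Spon1 (F-spondin), a secreted matrix protein, measured 16.9, 4.30 and 2.29 CPM in Calb2+ cells and 198, 134 and 152 CPM in other SST cells, a log2 fold change of -4.59 (SE 0.31, adjusted p = 2.64e-09 in edgeR). Kit, a receptor tyrosine kinase, averaged 4.34 ± 4.22 CPM in Calb2+ cells against 51.9 ± 13.4 CPM, and Erbb4, the neuregulin receptor, 11.7 ± 4.86 CPM against 84.3 ± 26.3 CPM. B3gat2, a glucuronyltransferase, fell by 2.80 on the log2 scale, and Gm38112 averaged 8.74 ± 0.381 CPM in Calb2+ cells against 61.3 ± 24.0 CPM. In each case the groups did not overlap.

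A closer comparison used SST cells chosen by Nppc and Mrap2, with no Calb2. These had no Calb2 UMI, at least 3 UMIs of Nppc and Mrap2 together and the same limits on Nos1, Chodl and Pvalb, and they numbered 38 in the P97 library, 28 in P45 replicate 1 and 21 in P45 replicate 2. Against them 24 of 5607 genes tested (0.428%) were called, 8 higher (0.143%) and 16 lower (0.285%) in Calb2+ cells. Of the given markers Sfrp2 was higher, at 80.2, 159 and 131 CPM in Calb2+ cells against 17.0, 81.7 and 43.9 CPM, a log2 fold change of 1.39 (SE 0.28, adjusted p = 0.00231 in edgeR). Olfm3 and Cbln4 did not pass, at 0.35 (SE 0.15, adjusted p = 0.578) and 0.42 (SE 0.17, adjusted p = 0.486), and Calb1 stood at 0.13 (SE 0.10). Pde1a, Pcdh18, Alcam, Tbc1d4, Hlf, Pdyn and Nrgn were the other rises. Nrgn (neurogranin), which also appears in the list of excitatory neuron markers, measured 114, 123 and 103 CPM in Calb2+ cells and 14.2, 55.9 and 62.7 CPM in the Nppc or Mrap2 cells. Slc17a7 was at 0 in the Calb2+ cells. The excitatory list as a whole, Nrgn included, summed to 275 to 350.2 CPM in the Calb2+ cells and 194 to 254 CPM in the Nppc or Mrap2 cells.

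The falls in this comparison were led by Spon1. It measured 16.9, 4.30 and 2.29 CPM in Calb2+ cells and 170, 94.6 and 81.6 CPM in Nppc or Mrap2 cells, a log2 fold change of -3.98 (SE 0.40, adjusted p = 2.33e-10 in edgeR). Edil3, a matrix protein that binds integrins, was lower by -1.52 (SE 0.27), and both genes kept their call under every alternative run for this comparison. Mgat4c, St6galnac5, 3110035E14Rik, Cort, Rora and Igf1 were lower too. Without the P97 library 8 genes were called and all were lower, and without the library block 5 were called and all were lower, so that none of the 8 rises was called under either.

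The last comparison between cell groups set Calb2+ cells against cells defined by at least 1 UMI of Hpse (heparanase), at least 3 of Pdyn (prodynorphin) and fewer than 2 of Calb2, with the same limits on Nos1, Chodl and Pvalb. At least 2 Hpse UMIs were held by 89 of the 180 other SST cells of the library sorted for GFP, against 105 of the 1719 of the tdTomato+ libraries. There were 40, 30 and 51 of them in the P97 library, P45 replicate 1 and P45 replicate 2. Of 6629 genes tested 526 (7.93%) were called, 257 higher (3.88%) and 269 lower (4.06%) in Calb2+ cells. Calb1 measured 1160.3, 1175 and 1164 CPM in Calb2+ cells and 79.2, 203 and 148 CPM in Hpse Pdyn cells, a log2 fold change of 3.07 (SE 0.15, adjusted p = 1.15e-91 in edgeR). As in the main test, edgeR lent each gene the spread of the others. A p this small therefore does not measure the spread of Calb1 itself over the libraries. Npy measured 4025, 3971 and 3893 CPM in Calb2+ cells and 426, 1094 and 605 CPM in Hpse Pdyn cells, a log2 fold change of 2.57 (SE 0.12). Cort, which was lower than in other SST cells at large, was higher than in Hpse Pdyn cells, at 173, 224 and 121 CPM against 24.8, 19.9 and 17.6 CPM. All 4 genes of the neuropeptide list tested here (Npy, Cort, Crhbp and Nppc) were higher in Calb2+ cells. Pdyn is on that list too, but it chose the Hpse Pdyn cells and was not tested. It averaged 356 ± 66.9 CPM in Calb2+ cells against 1558 ± 308 CPM in Hpse Pdyn cells (SD, n = 3).

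Etv1, a transcription factor found in layer 5 neurons, measured 105, 64.5 and 61.9 CPM in Calb2+ cells and had no UMI in Hpse Pdyn cells, at least 25.3-fold higher with a floor of 3 counts over all Hpse Pdyn cells. Gabrb1, a GABA-A receptor subunit, Fxyd6, a regulator of the sodium pump, Ptprt, a receptor phosphatase, Eya1, a transcriptional coactivator, and Sstr1, a somatostatin receptor, were the next largest rises, at log2 fold changes of 4.91, 4.44, 4.33, 4.22 and 4.03. The largest falls were Syt6 (a synaptotagmin), Syndig1l, Npnt (nephronectin, a matrix ligand of integrins), Prdm1 (a transcriptional repressor), Abhd11os and Aldoc, at -3.88, -3.78, -3.49, -3.21, -3.11 and -2.61. Npnt stood at 42.2, 12.9 and 22.9 CPM in Calb2+ cells against 339, 203 and 284 CPM. Reln (reelin) averaged 572 ± 167 CPM in Calb2+ cells and 1089 ± 154 CPM in Hpse Pdyn cells, a log2 fold change of -0.95 (SE 0.12).

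Of the given markers, Cbln4 alone passed the test against Hpse Pdyn cells. Olfm3 averaged 393 ± 125 CPM in Calb2+ cells and 371 ± 199 CPM in Hpse Pdyn cells, a log2 fold change of 0.13 (SE 0.14, adjusted p = 0.731 in edgeR) that turned to -0.082 without P45 replicate 2. Sfrp2 gave 0.42 (SE 0.22, adjusted p = 0.28). Cbln4 passed, at 1.10 (SE 0.17, adjusted p = 1.37e-08), with 207, 404 and 298 CPM in Calb2+ cells and 52.0, 326 and 92.8 CPM in Hpse Pdyn cells, whose P45 replicate 1 value lay inside the range of the Calb2+ cells. Maf, higher than in other SST cells, stood at -0.27 (SE 0.12, adjusted p = 0.17) against Hpse Pdyn cells. Of the 23 top classifier genes of cluster m1, 12 (52.2%) were higher against Hpse Pdyn cells and none lower, beside 7.93% of all genes called there. Against Nppc or Mrap2 cells 3 of 21 tested were higher and 1 lower (19.0% called), beside 0.428% of all genes. The comparisons share the Calb2+ cells, so their values stand side by side here and were not tested against each other.

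**Figure D4:**
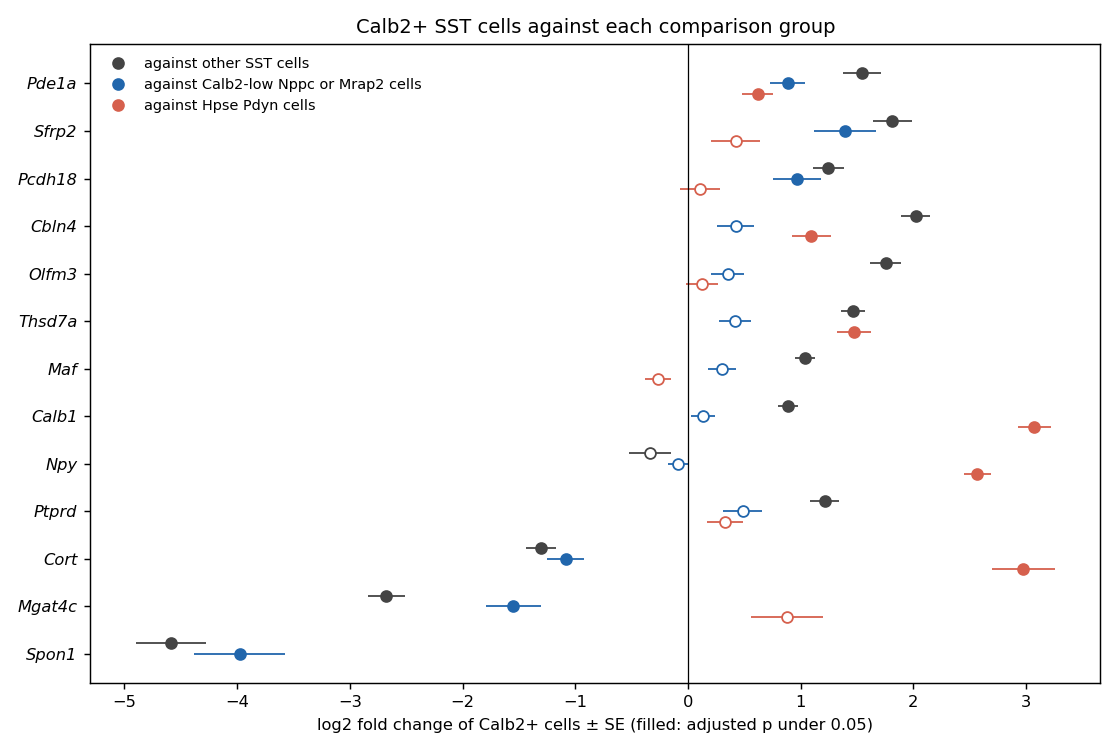
Log2 fold change of Calb2+ cells (horizontal axis, bars are ± SE) for 13 genes against other SST cells, against Calb2-low Nppc or Mrap2 cells and against Hpse Pdyn cells, over 3 tdTomato+ libraries. Filled points have an adjusted p under 0.05; Pde1a lies right of 0, and filled, in all 3 comparisons, while Cort lies left of 0 in the first 2 and right of 0, at 2.97, against Hpse Pdyn cells. Spon1 was not tested against Hpse Pdyn cells.

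Ion channel and receptor lists gave other members in this comparison. Of 20 sodium and calcium channel genes 6 were lower (Scn1a, Scn8a, Cacna1a, Cacna1i and Cacna2d2 among them) and 2 higher (Scn2a1 and Scn3b) in Calb2+ cells than in Hpse Pdyn cells. Of 30 potassium channel genes 5 were lower (Kcna1, Kcna2, Kcnab2 and Kcnj3 among them) and 1 higher (Kcnab1), and of 11 receptors for neuromodulators 4 were lower (Chrm3, Chrna4, Htr1a and Drd1) and 1, Sstr1, higher. Among 17 cadherins and protocadherins 7 were higher and 4 lower, with Cdh4, Cdh8, Pcdh8 and Pcdh19 higher here as well as against other SST cells. In the order given, these lists had 40%, 20%, 45.5% and 64.7% of their tested genes called, beside 7.93% of all genes tested here. Without P45 replicate 2, 260 genes were called, and without the P97 library 297.

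The GFP transcript of the X94 transgene was more abundant in Calb2+ cells. In the tdTomato+ libraries it measured 582, 495 and 454 CPM in Calb2+ cells of the P97 library, P45 replicate 1 and P45 replicate 2, against 335, 322 and 319 CPM in other SST cells, a log2 fold change of 0.68 (SE 0.10, adjusted p = 0.000118 in edgeR). The groups did not overlap and the call held under every alternative run. After thinning GFP was detected in 62.9% of Calb2+ cells (54.5 to 70.9), 54.6% of other SST cells (52.0 to 57.1) and 15.2% of Slc17a7 barcodes, so the intervals of the Calb2+ and other SST cells overlapped. The tdTomato transcript averaged 1324 ± 390 CPM in Calb2+ cells and 1299 ± 315 CPM in other SST cells, a log2 fold change of 0.06 (SE 0.09, adjusted p = 0.816).

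In the library sorted for GFP itself, 6 of 186 SST cells were Calb2+. They held 15 Calb2 UMIs in all, 2 or 3 in each cell, while the other 180 SST cells of that library held 1. These cells were deep, with a median of 12767.5 UMIs, against 16635.5 for the other SST cells of the GFP+ library. Olfm3 measured 554 CPM (95% exact Poisson interval 399 to 749) in the 6 Calb2+ cells of the GFP+ library and 249 CPM (190 to 321) in the 25 Calb2+ cells of the tdTomato+ P97 library. The Nppc values were 435 CPM (299.7 to 611) and 342 CPM (271 to 425), and those of GFP 567 CPM (411 to 764) and 582 CPM (489 to 688). All 6 cells held at least 2 UMIs of Nppc and Mrap2 together, 5 held all 3 of Olfm3, Sfrp2 and Cbln4, and 1 held at least 2 UMIs of Hpse, against 89 of the 180 other SST cells. These counts are before thinning, and after it 0 of the 6 held all 3 markers and 0 of 6 held Sfrp2. Cort was at 13.2 CPM in them, against 105 CPM in the other SST cells of the GFP+ library. Only 1 library was sorted for GFP, so these values have no replicate.

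Whether the difference between Calb2+ and other SST cells itself differed with age was asked with an interaction term, which left 1 residual degree of freedom and set 1 library at P97 against 2 at P45. It called 8 of 10456 genes (0.0765%), with 672 at an unadjusted p under 0.05, and all 8 had the larger value at P97. Col25a1, a transmembrane collagen, measured 321 CPM in Calb2+ cells of the P97 library and 142 and 108 CPM in those of P45 replicates 1 and 2, while other SST cells had 76.7, 212 and 86.4 CPM. The difference between ages was 2.28 on the log2 scale in edgeR (SE 0.29). Pde1a was higher in Calb2+ cells at both ages, by more at P97, with a difference of 1.13 (SE 0.22). Npy gave a difference of 1.12 (SE 0.17), and there the Calb2+ cells were alike, at 4025, 3971 and 3893 CPM, while the other SST cells had 3096, 10216 and 4271 CPM. Chodl and Nos1 in other SST cells stood at 15.3 and 62.9 CPM in the P97 library and at 70.5 and 369 CPM in P45 replicate 1, where Npy was highest. In P45 replicate 2 they stood at 15.7 and 106 CPM. Whether cells with these genes account for the Npy difference was not tested. The other SST cells were then limited to those with no Calb2 UMI and within the limits on Nos1, Chodl and Pvalb. With this choice, made after the values were seen, Npy gave 0.40 and lost its call, and Col25a1 gave 2.12. After thinning to 5000 UMIs Col25a1 was not called (1.83, adjusted p = 0.819) and Npy was (0.88, adjusted p = 0.0299). For all 8 genes the age of the P97 mice and their batch cannot be told apart.

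**Figure D5:**
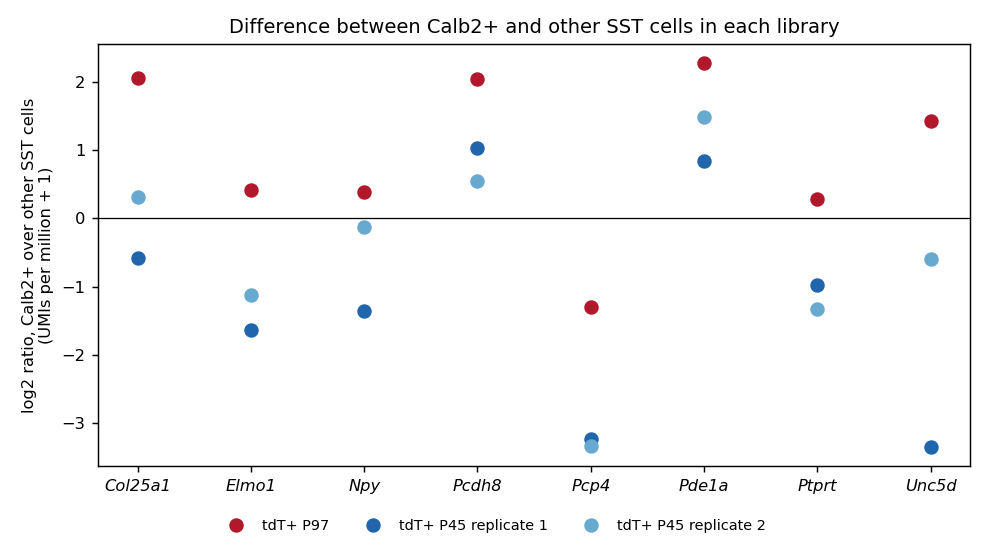
Log2 ratio of CPM (each plus 1) in Calb2+ over other SST cells, by tdTomato+ library, for the 8 genes called in the test of the ratio between ages. The P97 point lies above both P45 points for all 8 genes, and the P45 points lie farthest apart, at -3.35 and -0.60, for Unc5d, which held 23 UMIs in all Calb2+ cells.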

How the data were processed

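Per the labels, libraries were made with the Chromium Single Cell 3′ kit, and the submitters' processing notes name Cell Ranger 2.0.0 and the GRCm38 build. The authors deposited whole-number UMI counts for 28000 genes, GFP and tdTomato among them, in each cell barcode, with no normalization. Gene positions come from a GENCODE annotation of that build, in which 27645 gene identifiers were found.

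Counts were summed per library and cell group. Groups were compared over the 3 tdTomato+ libraries in edgeR 4.0.16, by its quasi-likelihood test after TMM scaling and its default filter on low counts, and p-values were adjusted by Benjamini-Hochberg. Each library was a block, a pairing that holds because a library's groups are cells of the same mice. The SE of a log2 fold change was taken as its size divided by the root of F. Genes of the selection rules were left out of tests. Scripts were tested on simulated data. DESeq2 1.42.0 was an alternative. Scrublet (scanpy 1.11.5, expected rate 1%) marked doublets, which were removed only as an alternative. Replicates of P45 are separate batches, and intervals cover counting error only.

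Named genes are the 14 largest rises and 10 largest falls (6 and 6 in the narrower comparisons) among calls with 1 direction in all libraries and at least 50 CPM, up to 4 per list with the smallest adjusted p, the given markers, and the transgenes. Further list members and all 8 age calls were named after their values were seen. The cells, markers and lists were chosen with earlier results of these data known. A comparison with Calb2+ cells holding Pvalb needed 10 cells per library and was not run, since there were 3, 0 and 1. Some genes are not reported here, though the counts over lists and over all genes include them.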

Additional observations from a re-analysis of the deposited data

Results flagged for a closer look

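The difference between Calb2+ and other SST cells was not the same in the 1 P97 library and the 2 P45 libraries for 8 genes by the interaction test, a contrast in which age goes with library and batch: on the log2 scale, P97 minus P45, it was 2.28 for Col25a1, 1.82 for Elmo1, 1.12 for Npy, 1.22 for Pcdh8, 1.98 for Pcp4, 1.13 for Pde1a, 1.43 for Ptprt and 3.26 for Unc5d. Pcp4, a small calmodulin-binding protein, measured 304 CPM in Calb2+ cells of the P97 library and 108 and 55.0 CPM in those of P45 replicates 1 and 2, against 747, 1021 and 562 CPM in other SST cells, so that it was lower in Calb2+ cells at both ages. Ptprt measured 312, 120.5 and 108 CPM in Calb2+ cells in the same order, against 255, 238 and 271 CPM. Elmo1 and Unc5d had 64 and 23 UMIs in all Calb2+ cells.

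The library sorted for GFP was in none of the main tests, entering only an alternative with all 4 libraries (486 genes called). It held 6 Calb2+ SST cells, above the limit of 3 that a count of 0 allows, and 0 of 176 after thinning with the rule applied anew.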

How the results depend on the processing

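The 463 genes that differed between Calb2+ and other SST cells became 187 with DESeq2, 176 with no replicate block and 222 with cells thinned to 5000 UMIs. They became 780 with narrower other SST cells, limited to those with no Calb2 UMI and within the limits on Nos1, Chodl and Pvalb. With each library left out the count ranged from 303 to 494. No gene called in both changed its sign under any of these. Against Nppc or Mrap2 cells the 24 calls became 5 with no replicate block and ranged from 8 to 23 with a library left out. Against Hpse Pdyn cells the 526 became 240 with no replicate block and 269 after thinning, and ranged from 260 to 355 with a library left out. The 8 age calls became 3 after thinning (1 higher and 2 lower at P97, of which 1, Npy, was among the 8) and 1 with the narrower other SST cells, an alternative chosen after seeing the data. The cause of these changes was not tested. The mean share of Calb2+ cells was 12.3% with a limit of 1 Calb2 UMI. Of 75 genes named and called against other SST cells, 60 kept the call without each library and 37 under every alternative.

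Signs turned for Mbp (0.58) without cells holding markers of other types, for Mog (0.17) with a limit of 1 Calb2 UMI and for Unc5d (-5.19, age difference) after thinning. Of values near 0, tdTomato turned to -0.060 with a limit of 4 Calb2 UMIs and -0.039 with the narrower other SST cells, and ranged from -0.016 to 0.11 with a library left out. Cux2 turned to -0.095 and -0.17 with limits of 1 and 4 Calb2 UMIs and -0.041 after thinning, and ranged from -0.22 to 0.47 with a library left out, and Olfm3 against Hpse Pdyn cells from -0.082 to 0.42. Thinning was not run against Nppc or Mrap2 cells, where a library kept under 10 cells, and no alternative was run for Calb2+ cells with Pvalb. Levels of 1 to 10 UMIs in all Calb2+ cells limit the falls named at the low end.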
